A study of Homo sapiens with 20 samples.

Results

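The EGR and NR4A genes were followed in OPM2 cells, a human multiple myeloma cell line, under histone deacetylase inhibitors. The 7 genes, EGR1 to EGR4 and NR4A1 to NR4A3, were taken by name, as the complete membership of both families, and each symbol matched 1 Ensembl identifier of the 78932 in the deposited count table. All 7 were among the 20957 genes that passed the filter on low counts. Poly(A)-selected RNA was sequenced with strand-specific libraries, 20 in all, 2 independent biological replicates in each of 10 groups. The groups were the DMSO vehicle, and panobinostat at 10 nM, romidepsin at 10 nM and ricolinostat at 100 nM, each harvested at 2, 5 and 20 h. For ricolinostat the sample titles, the protocol and the design text give 100 nM, while their treatment field gives 10 nM. All groups came from this single line, with no genetic change named in the labels. The labels give no harvest time for DMSO, so in every comparison with DMSO the inhibitor and the time in culture cannot be told apart, and all 9 of these comparisons share the 2 DMSO libraries.

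Immediate-early genes are transcribed within minutes of a stimulus from promoters that already hold their transcription factors, and their transcripts usually decay quickly. EGR1 to EGR4 encode zinc-finger transcription factors that bind GC-rich DNA, and the corepressors NAB1 and NAB2 bind most of them. NR4A1 (Nur77), NR4A2 (Nurr1) and NR4A3 (NOR1) encode orphan nuclear receptors whose activity is set mainly by how much protein is made, and in lymphoid cells both families are known as products of antigen-receptor signalling and as regulators of survival and tolerance. Panobinostat is a hydroxamate that inhibits most zinc-dependent histone deacetylases, romidepsin is a cyclic depsipeptide that acts mainly on the class I enzymes, and ricolinostat is a hydroxamate with preference for HDAC6.

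The promoters are shown first, because serum response factor and CREB, which act at CArG boxes and at cyclic AMP response elements (CRE), are the factors best known for starting immediate-early transcription. The RefSeq promoter table (GRCh38.p14) held 5 of the 7 genes, all but EGR3 and NR4A2. The 4 windows below are those of the genes in which a match to one of these motifs was found. Each is the 250 bases before the start, written 5′ to 3′ on the strand of the gene, at chr5:138465229-138465478 (plus strand) for EGR1, chr10:62816367-62816616 (minus strand) for the third of the RefSeq starts of EGR2, chr2:73293549-73293798 (minus strand) for EGR4 and chr9:99821635-99821884 (plus strand) for NR4A3. Capitals mark matches to the CArG box, or to the CRE half-site TGACG on either strand (CGTCA on the other).
EGR1: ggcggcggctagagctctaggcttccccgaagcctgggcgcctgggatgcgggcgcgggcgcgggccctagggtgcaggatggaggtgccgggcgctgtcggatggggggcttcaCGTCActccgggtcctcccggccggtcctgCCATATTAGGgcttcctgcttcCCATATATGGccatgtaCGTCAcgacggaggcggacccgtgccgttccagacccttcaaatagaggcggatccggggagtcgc
EGR2: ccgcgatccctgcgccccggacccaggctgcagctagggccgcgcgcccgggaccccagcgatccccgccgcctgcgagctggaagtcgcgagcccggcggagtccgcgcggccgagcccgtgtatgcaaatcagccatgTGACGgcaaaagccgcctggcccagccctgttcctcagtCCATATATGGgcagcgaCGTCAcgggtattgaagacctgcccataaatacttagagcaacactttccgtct
EGR4: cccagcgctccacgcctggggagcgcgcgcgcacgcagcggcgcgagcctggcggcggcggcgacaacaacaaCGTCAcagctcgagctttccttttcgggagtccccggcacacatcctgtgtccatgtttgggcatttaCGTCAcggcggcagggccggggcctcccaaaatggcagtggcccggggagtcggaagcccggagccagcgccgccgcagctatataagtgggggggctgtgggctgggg
NR4A3: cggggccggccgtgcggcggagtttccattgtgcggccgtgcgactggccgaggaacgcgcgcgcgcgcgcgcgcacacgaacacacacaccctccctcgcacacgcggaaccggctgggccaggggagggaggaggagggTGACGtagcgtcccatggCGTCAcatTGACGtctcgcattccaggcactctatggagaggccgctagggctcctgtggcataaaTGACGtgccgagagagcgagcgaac
The EGR1 window held 2 CArG boxes, at -105 to -96 and -83 to -74 from the start, flanked by TGACG matches at -135 to -131 and -66 to -62. EGR2 had 1 CArG box at -71 to -62 with a TGACG match on each side, at -110 to -106 and -54 to -50. No CArG box was present in the EGR4 window, which held 2 TGACG matches, or in the NR4A3 window, which held 4, the nearest beginning at -25. Over all 35116 RefSeq windows of this length, 1.16% held a CArG box and 0.0313% held 2 or more, while 21.2% held a TGACG match and 4.76% held 2 or more. Both windows of NR4A1 and the other 2 starts of EGR2 held neither motif. The NR4A1 windows end at 52022831 and 52037714 of chromosome 12, in a gene annotated to 52059507. Any NR4A1 start further along the gene was not searched. Searches on both strands for the full element TGACGTCA (1.65% of all windows, and counted as 2 TGACG matches), the EGR site GCGTGGGCG (0.72%), the NR4A site AAAGGTCA (1.05%) and TATAAA (10.7%) gave no match in any window of these genes. A match here is a run of letters, not a site shown to be used, and the starts used in OPM2 cells were not measured.

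**Figure D1:**
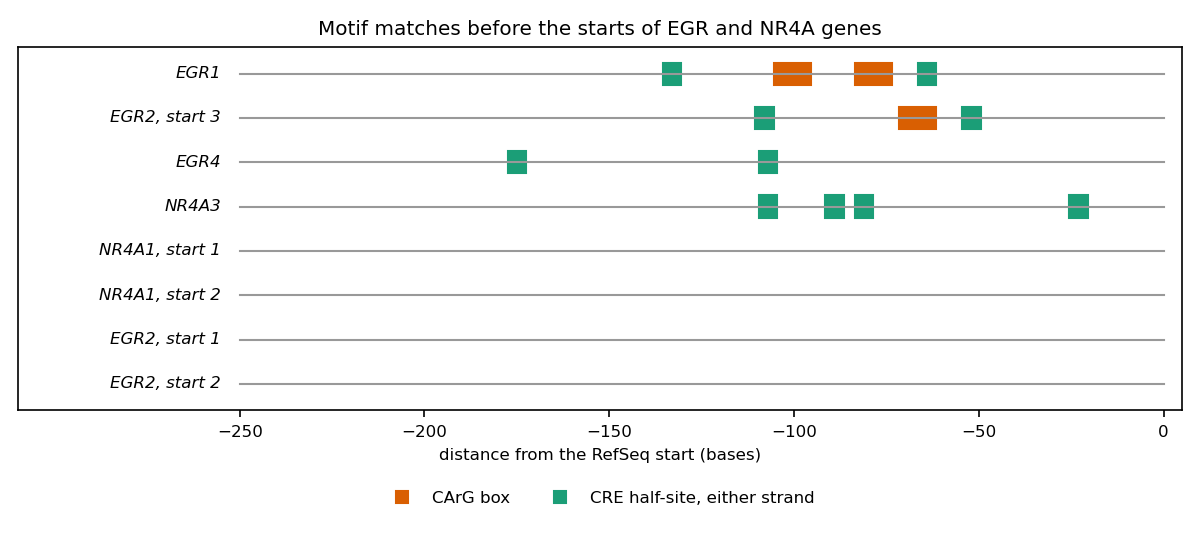
Positions of CArG boxes (orange) and CRE half-sites (green) in the 250 bases before each RefSeq start, with the distance from the start in bases on the x axis and 1 line per start. CArG boxes appear in EGR1 (2) and at 1 start of EGR2, half-sites in EGR1, EGR2, EGR4 and NR4A3, and neither in the 2 NR4A1 windows searched.

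Total counts per library ran from 17264640 to 29088868. Levels are given as CPM, counts per 1000000 after TMM scaling, and a gene is said to rise, fall or differ when its two-sided edgeR quasi-likelihood test had a Benjamini-Hochberg adjusted p under 0.05 over all genes tested. P-values set a difference against a spread estimated in 1 model over all 20 libraries. In it the 10 groups share each gene's estimate, which is drawn towards that of other genes. It is the spread between the 2 replicates of a group. Under DMSO all 9 plasma cell markers were detected (SDC1 at 1110 and 1130 CPM), whereas 2 of 5 T cell markers, 3 of 6 myeloid, 2 of 4 erythroid, 3 of 5 early B cell, 4 of 5 stromal and 5 of 5 epithelial markers had 0 counts. Among the markers at 0 were CD3D, CD3E, FCGR3A, S100A8, S100A9, HBA1, MS4A1, VPREB1, COL1A1, COL1A2, PDGFRB, LUM, EPCAM, KRT8, KRT18, KRT19 and CDH1. The summed level of the plasma cell markers was 5470 to 5490 CPM under DMSO. At 2 and 5 h it was 3340 and 1710 to 1770 after panobinostat, and 4110 to 4160 and 3730 to 3760 after romidepsin. After ricolinostat it was 4140 to 4150 and 3960 to 4100. At 20 h it was 426 to 436 after panobinostat, 1030 to 1050 after romidepsin and 4080 after ricolinostat. The other sums are given at 20 h, though T cell markers were higher at 5 h of panobinostat (4.1 to 5.07 CPM). Stromal markers moved from 0 to 0.0745 CPM under DMSO to 35.4 to 37.1 after panobinostat and 26.9 to 29.2 after romidepsin, and were at 0.136 to 0.257 after ricolinostat. Early B cell markers went from 0.335 to 0.635 CPM to 18.1 to 19.5, 18.1 to 19.2 and 1.59 to 1.97 in the same order, and myeloid markers from 0.127 to 0.335 to 6.97 to 7.01, 2.19 to 2.57 and 0.342 to 0.453. T cell markers went from 0.805 to 1.08 CPM to 1.8 to 2.07, 1.43 to 1.97 and 1.41 to 1.81, erythroid markers from 0.447 to 1.1 to 0.744 to 1.5, 0.802 to 1.11 and 0.77 to 0.952, and epithelial markers from 0 to 0.361 to 0.391, 0 to 0.297 and 0 to 0.0856. The part of these shifts in the results below was not tested, and in bulk RNA fewer cells of a type and less RNA per cell cannot be told apart.

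All 7 EGR and NR4A genes had risen after 20 h of panobinostat, and 6 of 7 after 20 h of romidepsin, by 15.1-fold (NR4A1) to 53.2-fold (NR4A3) in those with more than 3 counts under DMSO. Panobinostat raised EGR1, EGR2, NR4A1, NR4A2 and NR4A3 by 2 h already. Romidepsin raised none of the 7 by 2 h, then EGR1 and NR4A2 by 5 h, and most of its change came between 5 and 20 h. After ricolinostat, used at 100 nM, the changes that passed ran from 1.25-fold (NR4A1 at 2 h) to 3.29-fold (EGR2 at 20 h), and EGR2 was the only one of the 7 to pass at 20 h. None of the 7 fell against DMSO at 2 or 20 h of panobinostat, at 2 or 20 h of romidepsin, or at 20 h of ricolinostat. Of all genes, 18.1% fell at 2 h and 32.3% at 20 h of panobinostat. After romidepsin 4.62% fell at 2 h and 29.9% at 20 h, and 16.4% fell at 20 h of ricolinostat. The other groups, for which that share is not given, are left out of this count.

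These counts stand against the share of all tested genes that passed. After panobinostat 5 genes rose at 2 h, when 20.8% of all genes rose, 5 at 5 h (30.7%) and 7 at 20 h (40.8%). After romidepsin 0 of 7 passed at 2 h, when 3.55% of all genes rose and 4.62% fell, 2 rose at 5 h (13%) and 6 at 20 h (38.6%). At 2 h of romidepsin the unadjusted edgeR p was 0.02 for EGR1 (higher), 0.047 for EGR4 (lower) and 0.0066 for NR4A3 (lower). The share of all genes with an unadjusted p under 0.05 was not counted, so these values are not read as a response. DESeq2 passed 0 of 7 there. Without the second romidepsin 2 h library NR4A3 fell, with a log2 change of -2.71 and an adjusted p of 0.029 in edgeR. After ricolinostat 4 rose at 2 h (16.9% of all genes), 3 at 5 h (18.8%) and 1 at 20 h (14.7%). The ricolinostat count at 5 h was 1 without the second DMSO library or without the first ricolinostat 5 h library, and at 20 h it was 2 without the second DMSO library.

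**Figure D2:**
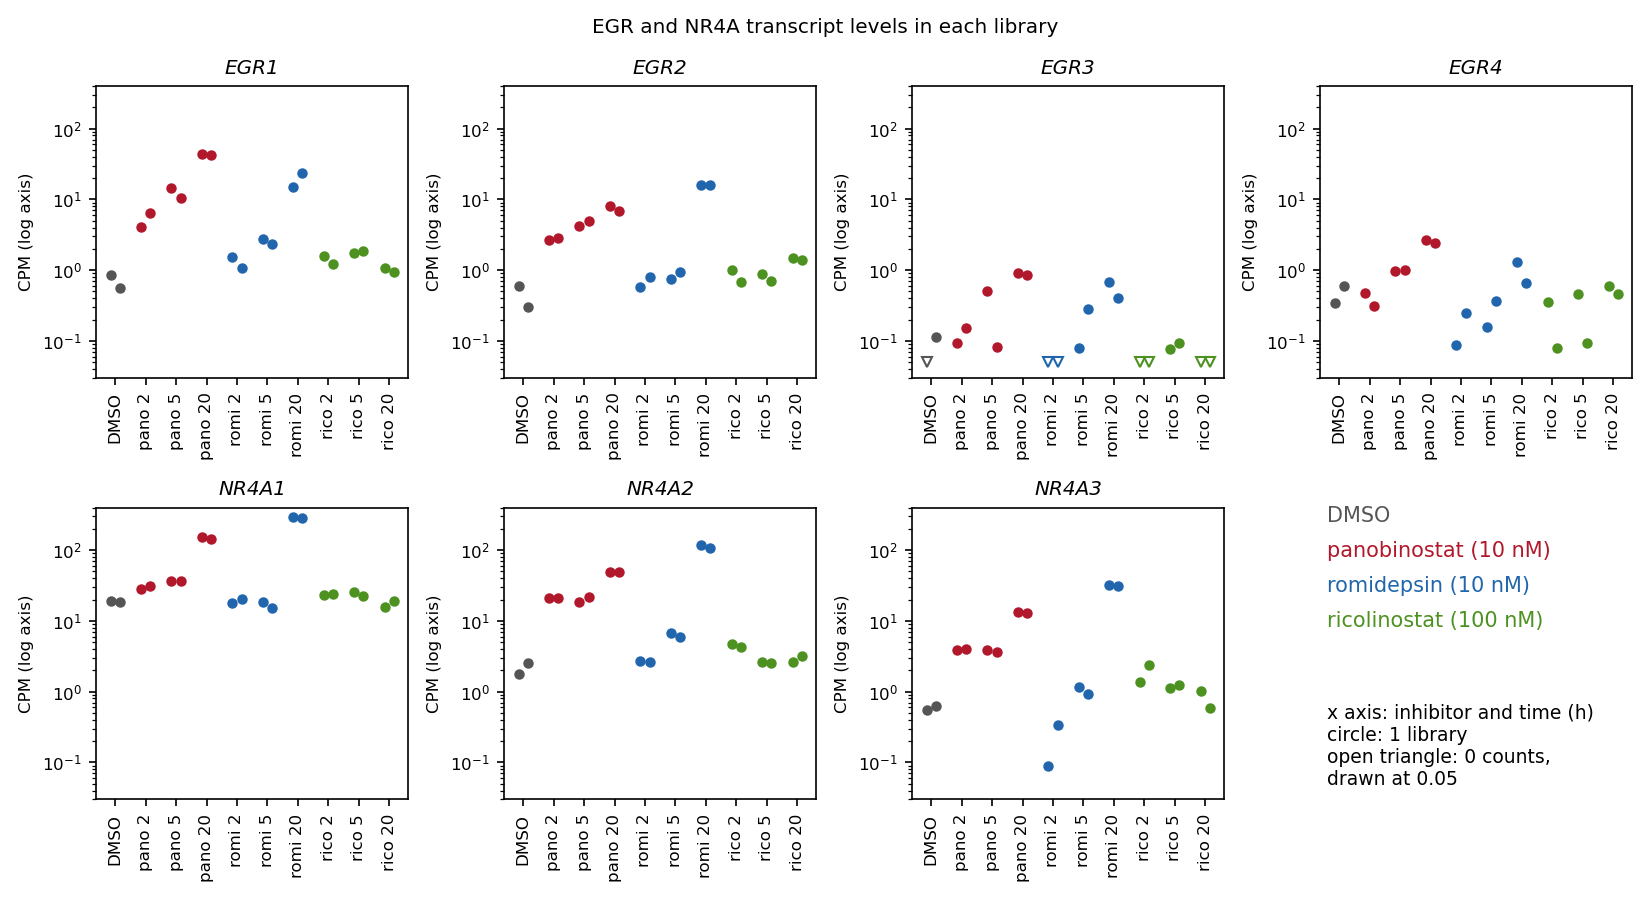
CPM of each gene in each of the 20 libraries on a log axis, by inhibitor and time in h on the x axis, with 1 circle per library and open triangles for libraries with 0 counts, drawn at 0.05. The panobinostat (red) and romidepsin (blue) 20 h libraries are the 4 highest for EGR1, EGR2 and the NR4A genes, NR4A1 after romidepsin reaching 282 and 289 CPM, and the ricolinostat libraries (green) lie near DMSO (grey).

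To compare the genes with each other, CPM was divided by exon length in kb. Under DMSO, NR4A1 stood highest at 4.66 CPM per kb, followed by NR4A2 (0.577), EGR1 (0.224), EGR4 (0.197), EGR2 (0.142), NR4A3 (0.0938) and EGR3 (0.0126). In this order NR4A1 and NR4A2 lay clear of the genes below them, whereas the replicate values of EGR1 and EGR4, of EGR4 and EGR2, and of EGR2 and NR4A3 overlapped. After 20 h of panobinostat the order was NR4A1 (36.8), EGR1 (13.6), NR4A2 (12.9), EGR2 (2.39), NR4A3 (2.07), EGR4 (1.06) and EGR3 (0.196). After 20 h of romidepsin it was NR4A1 (70.3), NR4A2 (29.9), EGR1 (6.12), EGR2 (5.13), NR4A3 (5.05), EGR4 (0.416) and EGR3 (0.122). The replicate values of EGR1, EGR2 and NR4A3 overlapped there. After 20 h of ricolinostat NR4A1 was at 4.27 and NR4A2 at 0.778 CPM per kb, with EGR2 next at 0.462.

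EGR1 encodes the zinc-finger factor for which the EGR family is named, and lies on the plus strand of chromosome 5 (ENSG00000120738, GRCh38 138465490 to 138469315). It had 0.847 and 0.559 CPM under DMSO, and 4.1 and 6.44 CPM at 2 h, 14.6 and 10.5 at 5 h and 43.5 and 42 at 20 h of panobinostat. After romidepsin it had 1.53 and 1.08, 2.76 and 2.32, then 15.1 and 23.3 CPM. After ricolinostat it had 1.57 and 1.23, 1.73 and 1.87, then 1.07 and 0.952 CPM. No library of any inhibitor overlapped DMSO, and the panobinostat libraries of each time lay above those of the time before. With 2 libraries in a group, lack of overlap adds no support of its own, here and for the genes below. Its share over all genes was not counted. On the log2 scale EGR1 had risen by 2.93 (SE 0.33), 4.15 (0.33) and 5.93 (0.32) after panobinostat, the last a 61.1-fold change with an edgeR adjusted p of 2.3e-31. Its change after romidepsin was 0.90 (SE 0.38, adjusted p 0.15 in edgeR) at 2 h, 1.87 (0.35) at 5 h and 4.78 (0.32) at 20 h. Under ricolinostat it was higher by 1.00 (SE 0.38) at 2 h and 1.36 (0.37) at 5 h, and its difference of 0.54 (0.40) at 20 h did not pass. The 2 h call is weak, with an adjusted p of 0.031 in edgeR that became 0.062 with a replicate block, 0.29 without the second DMSO library and 0.26 without the first ricolinostat 2 h library. The 5 h call had an adjusted p of 0.0013, and 0.057 without the second DMSO library.

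EGR2, also known as Krox-20, takes part in B and T cell tolerance and in myelination, and lies on the minus strand of chromosome 10 (ENSG00000122877, GRCh38 62811996 to 62919900). Under DMSO it had 0.593 and 0.298 CPM. Panobinostat libraries had 2.64 and 2.87 CPM at 2 h, 4.22 and 4.99 at 5 h and 8.18 and 6.82 at 20 h. Romidepsin libraries had 0.57 and 0.791, 0.749 and 0.927, then 16 and 16.2 CPM. EGR2 was thus already clear of DMSO at 2 h of panobinostat, while the 2 h romidepsin libraries overlapped DMSO and the highest of all its levels came at 20 h of romidepsin. The log2 changes were 2.65 (SE 0.38), 3.39 (0.37) and 4.08 (0.36) after panobinostat, and 5.18 (0.36), 36.4-fold, after 20 h of romidepsin with an edgeR adjusted p of 6.1e-32. At 2 and 5 h of romidepsin they were 0.64 (SE 0.44) and 0.92 (0.43) and did not pass. Ricolinostat libraries had 1.01 and 0.675, 0.885 and 0.702, then 1.5 and 1.41 CPM. EGR2 was the gene that passed at 20 h of ricolinostat, with a log2 change of 1.72 (SE 0.40, edgeR adjusted p 0.00011), after 0.92 (0.43) and 0.86 (0.43) at 2 and 5 h that did not pass.

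EGR3, which shares the zinc-finger domain and acts with EGR2 in lymphocytes, was close to the limit of detection (ENSG00000179388, chromosome 8, minus strand, GRCh38 22687659 to 22693302). Its DMSO libraries had 0 and 0.112 CPM, a sum of 3 counts. Both libraries were at 0 counts in the romidepsin 2 h, ricolinostat 2 h and ricolinostat 20 h groups, which allows up to 3 counts per group by counting error alone if each count is 1 molecule. Panobinostat libraries had 0.0943 and 0.153 CPM at 2 h, 0.513 and 0.0825 at 5 h and 0.9 and 0.842 at 20 h, the last a sum of 51 counts. Romidepsin libraries had 0.0789 and 0.278 CPM at 5 h and 0.675 and 0.408 at 20 h (27 counts), and ricolinostat libraries 0.0769 and 0.0936 at 5 h. EGR3 rose at 20 h of panobinostat, with a ratio of counts per library size of 14.6 (95% counting interval 4.72 to 73) and an edgeR adjusted p of 0.00094. This interval and the next are too narrow if 1 molecule gave more than 1 count. At 20 h of romidepsin the ratio was 8.96 (2.76 to 46.2) with an adjusted p of 0.0096 in edgeR, which became 0.14 without the first DMSO library and 0.087 without the first romidepsin 20 h library.

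EGR4, first described as a factor induced by nerve growth factor, is encoded on the minus strand of chromosome 2 (ENSG00000135625, GRCh38 73290929 to 73293705). DMSO libraries had 0.339 and 0.596 CPM. After panobinostat EGR4 had 0.472 and 0.307 CPM at 2 h, 0.968 and 0.99 at 5 h and 2.66 and 2.41 at 20 h. After romidepsin it had 0.0877 and 0.25, 0.158 and 0.371, then 1.31 and 0.668 CPM. The 2 h romidepsin libraries lay below DMSO and the 20 h libraries above it, with neither difference passing. EGR4 had the smallest estimate of the EGR genes at 20 h of panobinostat, a rise of 2.41 on the log2 scale (SE 0.53, edgeR adjusted p 2e-05), with differences of -0.30 (0.63) and 1.05 (0.57) before it that did not pass. After romidepsin its differences were -1.44 (SE 0.76), -0.86 (0.69) and 1.04 (0.56), the last with an edgeR adjusted p of 0.085. That value became 0.035 with scaling by library size only and 0.045 without the second romidepsin 20 h library. Ricolinostat libraries had 0.35 and 0.0794, 0.462 and 0.0936, then 0.599 and 0.453 CPM, overlapping DMSO at each time.

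NR4A1, an orphan receptor known for a part in negative selection and apoptosis of lymphocytes, was the most abundant of the genes per kb in each group (ENSG00000123358, chromosome 12, plus strand, GRCh38 52022832 to 52059507). It had 19.1 and 18.7 CPM under DMSO. Panobinostat libraries had 28.2 and 30.7 CPM at 2 h, 36.9 and 36.3 at 5 h and 155 and 142 at 20 h. Romidepsin libraries had 17.7 and 20.3, 18.2 and 15.4, then 289 and 282 CPM. NR4A1 thus lay at or near the DMSO level for 5 h of romidepsin and was the highest of all libraries at 20 h. On the log2 scale the panobinostat changes were 0.64 (SE 0.08), 0.95 (0.08) and 2.97 (0.07), and the 20 h romidepsin change was 3.92 (0.07), 15.1-fold, with an edgeR adjusted p of 3.2e-69. At 2 and 5 h of romidepsin the differences were 0.01 (95% interval -0.17 to 0.18) and -0.16 (SE 0.09), the last with an adjusted p of 0.16 in edgeR, and of 0.026 without the first romidepsin 5 h library. After ricolinostat NR4A1 had 22.9 and 24.3, 25.3 and 22.2, then 15.8 and 18.8 CPM, with rises of 0.32 (SE 0.08) and 0.33 (0.08) at 2 and 5 h and a difference of -0.13 (0.09) at 20 h that did not pass. The 2 h call was lost without the second ricolinostat 2 h library (edgeR adjusted p 0.18) and the 5 h call without the first ricolinostat 5 h library (0.47). A GENCODE gene on the other strand, AC025259.3, overlaps NR4A1 and held 423 counts over all libraries against 31758 for NR4A1.

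NR4A2, known for its part in dopaminergic neurons and in inflammation, lies on the minus strand of chromosome 2 (ENSG00000153234, GRCh38 156324432 to 156342348). DMSO libraries had 1.78 and 2.57 CPM. At 2 h of panobinostat NR4A2 had 20.7 and 21.2 CPM, with 18.2 and 21.5 at 5 h and 49.2 and 48.3 at 20 h. Romidepsin libraries had 2.72 and 2.66, 6.71 and 5.89, then 119 and 106 CPM. After panobinostat the level stepped up by 2 h, held to 5 h and stepped up again by 20 h, whereas romidepsin libraries lay close to DMSO at 2 h and highest at 20 h. Its rise at 2 h of panobinostat, 3.25 on the log2 scale (SE 0.16), was the largest estimate of the genes, next to 2.93 (0.33) for EGR1, and was followed by 3.18 (0.17) and 4.47 (0.16), 22.1-fold. After romidepsin the changes were 0.29 (SE 0.20, not passing), 1.52 (0.18) and 5.68 (0.16), the last 51.1-fold with an edgeR adjusted p of 2.9e-65. Ricolinostat libraries had 4.72 and 4.21, 2.65 and 2.57, then 2.65 and 3.22 CPM. NR4A2 rose by 1.02 (SE 0.19, edgeR adjusted p 1.9e-06) at 2 h of ricolinostat and did not pass at 5 h (0.25, SE 0.21) or 20 h (0.41, SE 0.20). The 20 h value passed with scaling by library size only (0.52, edgeR adjusted p 0.04) and without the second DMSO library (0.71, 0.038).

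NR4A3, which overlaps with NR4A1 in restraining myeloid leukaemia and in T cell exhaustion, lies on the plus strand of chromosome 9 (ENSG00000119508, GRCh38 99821855 to 99866891). It had 0.551 and 0.634 CPM under DMSO. Panobinostat libraries had 3.92 and 4.02 CPM at 2 h, 3.87 and 3.63 at 5 h and 13.3 and 12.9 at 20 h. Romidepsin libraries had 0.0877 and 0.333, 1.18 and 0.927, then 32.5 and 31.3 CPM. These values ran from below both DMSO libraries at 2 h to the highest of any group at 20 h. The panobinostat changes were 2.73 (SE 0.33), 2.64 (0.33) and 4.45 (0.31) on the log2 scale. After romidepsin they were -1.46 (SE 0.57, edgeR adjusted p 0.07), 0.83 (0.37, adjusted p 0.075) and 5.73 (0.31), the last 53.2-fold with an adjusted p of 5.1e-42. After ricolinostat NR4A3 had 1.36 and 2.34, 1.12 and 1.26, then 1.03 and 0.589 CPM. It rose by 1.64 (SE 0.35) at 2 h and 0.99 (0.37) at 5 h of ricolinostat, and its 0.45 (0.39) at 20 h did not pass. The 5 h call had an adjusted p of 0.023 in edgeR and was lost without any 1 of the 4 libraries compared, with adjusted p from 0.083 to 0.15.

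**Figure D3:**
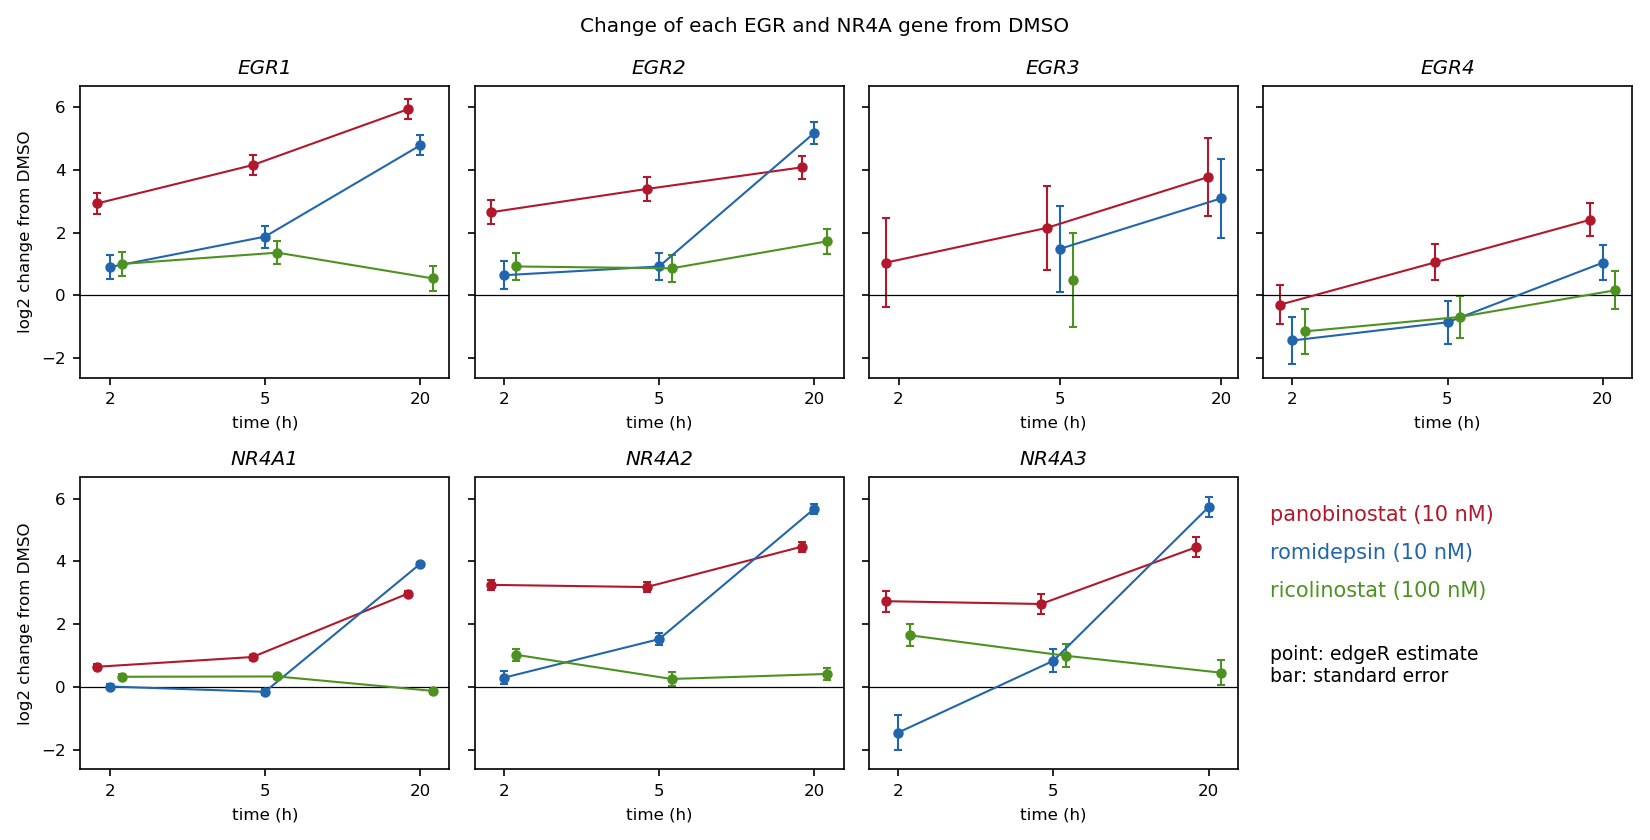
Log2 change of each gene from DMSO (edgeR estimate, bars of 1 standard error, y axis) at 2, 5 and 20 h (x axis) for each inhibitor, leaving out EGR3 in groups with 0 counts. The panobinostat line (red) lies above romidepsin (blue) at 2 and 5 h in each panel with both, and at 20 h romidepsin lies above panobinostat for EGR2 and the 3 NR4A genes.

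Romidepsin and panobinostat were both used at 10 nM, and they were compared directly at each time, 3 comparisons for each of the 7 genes with p-values adjusted over all genes tested. The same dose need not inhibit the enzymes equally or equally fast, which was not measured. Compound, potency and speed of onset therefore cannot be told apart. At 2 h, 20.8% of all genes rose and 18.1% fell after panobinostat, against 3.55% and 4.62% after romidepsin. At 2 h 5 genes were lower after romidepsin, when 19.8% of all genes were lower, at 5 h 6 were lower (25.9%), and at 20 h 4 were higher (23.4% of all genes higher) and 2 lower (18.3%). The order of the inhibitors thus turned between 5 and 20 h for EGR2, NR4A1, NR4A2 and NR4A3, but not for EGR1. The 2 h romidepsin libraries held only 10 NR4A3 counts in all, so the size of the NR4A3 difference there is uncertain. At 2 h the log2 difference, romidepsin minus panobinostat, was -4.19 for NR4A3 (SE 0.51, edgeR adjusted p 1e-18), -2.96 for NR4A2 (0.16), -2.03 for EGR1 (0.28), -2.01 for EGR2 (0.34) and -0.64 for NR4A1 (0.08). At 5 h it was -2.47 for EGR2 (SE 0.31), -2.28 for EGR1 (0.22), -1.90 for EGR4 (0.65), -1.81 for NR4A3 (0.28), -1.66 for NR4A2 (0.12) and -1.11 for NR4A1 (0.08). At 20 h it was 1.28 for NR4A3 (SE 0.15), 1.21 for NR4A2 (0.08), 1.10 for EGR2 (0.19) and 0.94 for NR4A1 (0.06), against -1.15 for EGR1 (0.15) and -1.36 for EGR4 (0.47). In each of these differences the libraries of the 2 inhibitors did not overlap. They did not overlap either for EGR3 and EGR4 at 2 h and EGR3 at 20 h, which did not pass. With 2 libraries on each side, lack of overlap adds no support of its own, and its share over all genes was not counted.

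Where no difference passed, the intervals were wide. For EGR3 the 20 h difference was -0.69 (95% interval -2.27 to 0.89) and the 5 h difference -0.67 (-2.76 to 1.42); a difference was not detectable at this depth. At 2 h EGR3 had 6 counts after panobinostat and 0 after romidepsin, a difference that did not pass (edgeR adjusted p 0.077). For EGR4 the 2 h difference was -1.15 (95% interval -2.70 to 0.41). The EGR4 differences that passed rest on few counts: that at 20 h had an adjusted p of 0.014 in edgeR, 0.052 in DESeq2, and 0.097, 0.052 and 0.26 without the first panobinostat, the second panobinostat or the second romidepsin 20 h library. That at 5 h (edgeR adjusted p 0.0071) became 0.13 without the first romidepsin 5 h library. Ricolinostat was used at 100 nM and is not compared with the others. Side by side, the 20 h log2 changes from DMSO after panobinostat, romidepsin and ricolinostat were 5.93, 4.78 and 0.54 for EGR1, 4.08, 5.18 and 1.72 for EGR2, and 4.47, 5.68 and 0.41 for NR4A2.

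**Figure D4:**
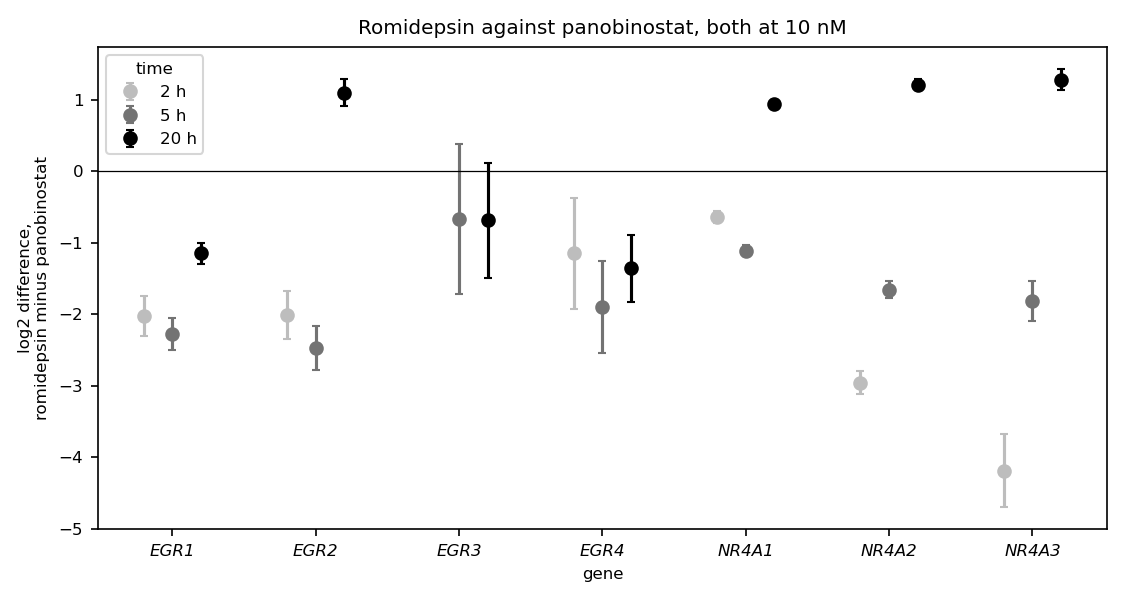
Log2 difference of romidepsin from panobinostat, both at 10 nM, for each gene (x axis) at 2 h (light grey), 5 h (grey) and 20 h (black), as edgeR estimates with bars of 1 standard error, leaving out EGR3 at 2 h. EGR2 and the NR4A genes lie below 0 at 2 and 5 h and above 0 at 20 h, while EGR1 stays below 0, at -2.03, -2.28 and -1.15.

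Successive times were compared within each inhibitor, which needs no DMSO library. As no vehicle was followed over these times, exposure to the inhibitor and time in culture cannot be told apart in these steps either. Under panobinostat EGR1, EGR2 and NR4A1 rose from 2 to 5 h, 3 of 7 when 19.8% of all genes rose, by 1.22 (SE 0.19), 0.74 (0.24) and 0.31 (0.08) on the log2 scale. NR4A2 and NR4A3 had differences of -0.07 (95% interval -0.27 to 0.13) and -0.09 (-0.51 to 0.34) in that step, which did not pass. From 5 to 20 h of panobinostat 6 rose (27.5% of all genes), from 0.69 (SE 0.21) for EGR2 to 2.02 (0.07) for NR4A1. Under romidepsin EGR1, NR4A2 and NR4A3 rose from 2 to 5 h, 3 of 7 when 8.4% of all genes rose, by 0.97 (SE 0.30), 1.23 (0.17) and 2.29 (0.54). From 5 to 20 h of romidepsin 6 rose (33.4%), by 4.90 (SE 0.26) for NR4A3, 4.26 (0.30) for EGR2, 4.15 (0.11) for NR4A2, 4.08 (0.08) for NR4A1, 2.91 (0.21) for EGR1 and 1.90 (0.64) for EGR4. EGR3 did not pass in any of these steps in the fit over all groups. Fitted with only the groups compared, it rose from 5 to 20 h of panobinostat (edgeR adjusted p 0.018) and of romidepsin (0.047). Without the first 5 h library of the inhibitor, it rose from 5 to 20 h of panobinostat (0.043) and from 2 to 5 h of romidepsin (0.044). Tested as a difference between the inhibitors, the change from 2 to 5 h was larger after romidepsin for NR4A2 and NR4A3 (2 of 7, when 14.4% of all genes had a larger change) and smaller for NR4A1 (1 of 7, 9.72%), and that from 5 to 20 h was larger for 5 of 7 (24.8%). Between 2 and 5 h of ricolinostat NR4A2 fell by 0.77 (SE 0.18), 1 of 7 when 8.58% of all genes fell. Between 5 and 20 h of ricolinostat EGR1 and NR4A1 fell by 0.82 (SE 0.34) and 0.46 (0.09), and EGR2 rose by 0.86 (0.35), when 20.7% of all genes fell and 17.2% rose. That count of 3 was 1, NR4A1, without the second ricolinostat 5 h library or either ricolinostat 20 h library. Single libraries also decided several smaller steps: EGR1 from 2 to 5 h of romidepsin (edgeR adjusted p 0.18 without the second 2 h library, 0.11 without the first 5 h library), EGR2 from 2 to 5 h of panobinostat (0.066 and 0.14 without the first 2 h or second 5 h library) and from 5 to 20 h (0.095 and 0.096 without the first 5 h or first 20 h library), and EGR4 from 5 to 20 h in both. The EGR4 values were 0.072, 0.079 and 0.08 without the first or second 5 h or the first 20 h panobinostat library, and 0.11 and 0.13 without the first 5 h or first 20 h romidepsin library.

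The genes' regulators and partners were read from 4 lists of known genes, each described by its counts and its median log2 change beside the same over all genes. The lists were chosen with earlier results of these data known. Apart from FOS, JUNB, DUSP1, NAB1, NAB2, RXRA and SRF, the genes named from them were picked for large 20 h changes. The size of those changes thus follows from the choice. Of all genes tested, 40.8% rose and 32.3% fell at 20 h of panobinostat (median 0.25), 38.6% and 29.9% at 20 h of romidepsin (0.22), and 14.7% and 16.4% at 20 h of ricolinostat (0.03). The other immediate-early genes had 41 of 43 members tested. Of these, 30 rose and 10 fell at 20 h of panobinostat (median 1.85), 32 rose and 5 fell at 20 h of romidepsin (2.29), and 18 rose and 10 fell at 20 h of ricolinostat (0.20). Those 2 inhibitors with large EGR and NR4A changes also raised FOS, a subunit of the AP-1 factor, by 4.14 (SE 0.17) and 4.61 (0.17), and IER3, an immediate-early gene of cell survival, by 7.62 (0.39) and 7.81 (0.39). DUSP1, a phosphatase that turns off MAP kinases, rose by 3.47 (SE 0.10) and 4.03 (0.09). RGS2, a brake on G-protein signalling, rose by 4.42 (0.15) and 5.33 (0.15), whereas RGS1 rose by 4.18 (0.13) after romidepsin and fell by 0.41 (0.16) after panobinostat, a fall that did not pass with library size only (-0.10, edgeR adjusted p 0.57). At 2 h of panobinostat 23 of the 41 rose and 10 fell (median 0.51), and of all genes 20.8% rose and 18.1% fell (0.01). At 2 h of romidepsin 3 rose and 19 fell (median -0.39), when 3.55% of all genes rose and 4.62% fell (0). JUNB, another AP-1 subunit, fell by 0.68 (SE 0.06). FOS after 2 h of panobinostat was higher by 2.72 (SE 0.17), and after romidepsin its difference of -0.38 (0.22) did not pass. Set directly against panobinostat, romidepsin had 5 of the 41 higher and 29 lower at 2 h (median -0.99), when 17.3% of all genes were higher and 19.8% lower (0). At 20 h it had 25 higher and 7 lower (0.43), when 23.4% of all genes were higher and 18.3% lower (0).

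Among partners and corepressors, 17 of 18 were tested, and 3 rose and 12 fell at 20 h of panobinostat (median -0.82), 2 rose and 12 fell at 20 h of romidepsin (-0.57), and 1 rose and 6 fell at 20 h of ricolinostat (-0.09), beside medians of all genes of 0.25, 0.22 and 0.03. With library size only the counts were 5 and 10 (median -0.52, all genes 0.56), 5 and 10 (-0.34, all genes 0.46), and 3 and 2 (0.01, all genes 0.13). NAB2, the EGR corepressor whose own gene is a known EGR target, rose in each of the 9 groups. Its log2 change was 1.83 (SE 0.12), 2.13 (0.12) and 3.51 (0.11) after panobinostat, 0.60 (0.13), 0.89 (0.13) and 4.25 (0.11) after romidepsin and 1.77 (0.12), 1.53 (0.12) and 0.49 (0.14) after ricolinostat. NAB1, the related corepressor, fell at 20 h by 1.78 (0.08) after panobinostat and 0.70 (0.08) after romidepsin, with a difference of 0.08 (0.07) after ricolinostat that did not pass. RXRA, which pairs with NR4A1 and NR4A2 on DNA, fell at 20 h by 2.85 (0.07) and 1.80 (0.07) after panobinostat and romidepsin, and had a difference of -0.11 (0.06) after ricolinostat that did not pass. SUV39H1, a histone methyltransferase, fell at 20 h by 2.09 (0.08), 1.99 (0.08) and 0.36 (0.07) after panobinostat, romidepsin and ricolinostat, and NRIP1, a corepressor of nuclear receptors, fell by 3.03 (0.16) and 1.03 (0.12) after panobinostat and romidepsin.

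The list of kinases and factors that act at these promoters, 28 of 31 tested, showed 9 higher and 18 lower at 20 h of panobinostat (median -0.17), 11 and 12 after romidepsin (0.07), and 6 and 7 after ricolinostat (0), beside medians of all genes of 0.25, 0.22 and 0.03. The balance of these counts depended on the scaling. With library size only there were 15 higher and 11 lower after panobinostat (median 0.14, all genes 0.56), 16 and 10 after romidepsin (0.31, all genes 0.46), and 12 and 4 after ricolinostat (0.10, all genes 0.13). SRF, serum response factor, fell at 20 h by 0.13 (SE 0.05), 0.47 (0.05) and 0.24 (0.05) after panobinostat, romidepsin and ricolinostat. Its panobinostat difference depends on the scaling, at -0.09 with DESeq2-type size factors (edgeR adjusted p 0.093) and 0.17, higher than DMSO, with library size only. MEF2C, of the MEF2 family that drives NR4A1 in T cells, fell by 2.16 (0.04) and 0.48 (0.04) after panobinostat and romidepsin and rose by 0.35 (0.04) after ricolinostat. CAMK2D, a calcium-dependent kinase, fell by 3.10 (0.05) and 1.02 (0.05) and rose by 0.27 (0.04) in the same order. MAPK3 (ERK1) rose by 0.41 (0.07), 0.77 (0.07) and 0.61 (0.07).

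Genes known as targets of EGR or NR4A factors in other cells, 24 of 32 tested, included 12 higher and 10 lower at 20 h of panobinostat (median 0.62), 12 and 6 after romidepsin (1.02), and 6 and 5 after ricolinostat (-0.03). The medians of all genes were 0.25, 0.22 and 0.03, and 40.8%, 38.6% and 14.7% of all genes were higher. FN1, fibronectin, rose by 3.80 (SE 0.08) and 4.81 (0.08) after panobinostat and romidepsin, and by 1.63 (0.09) after ricolinostat. CBLB, a ubiquitin ligase of lymphocyte tolerance and a known EGR2 and EGR3 target, rose by 2.37 (0.12), 3.38 (0.12) and 0.79 (0.14). CCND2, cyclin D2, fell by 4.63 (0.05), 2.77 (0.04) and 0.23 (0.04). NAB2 is counted in this list and among the partners.

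**Figure D5:**
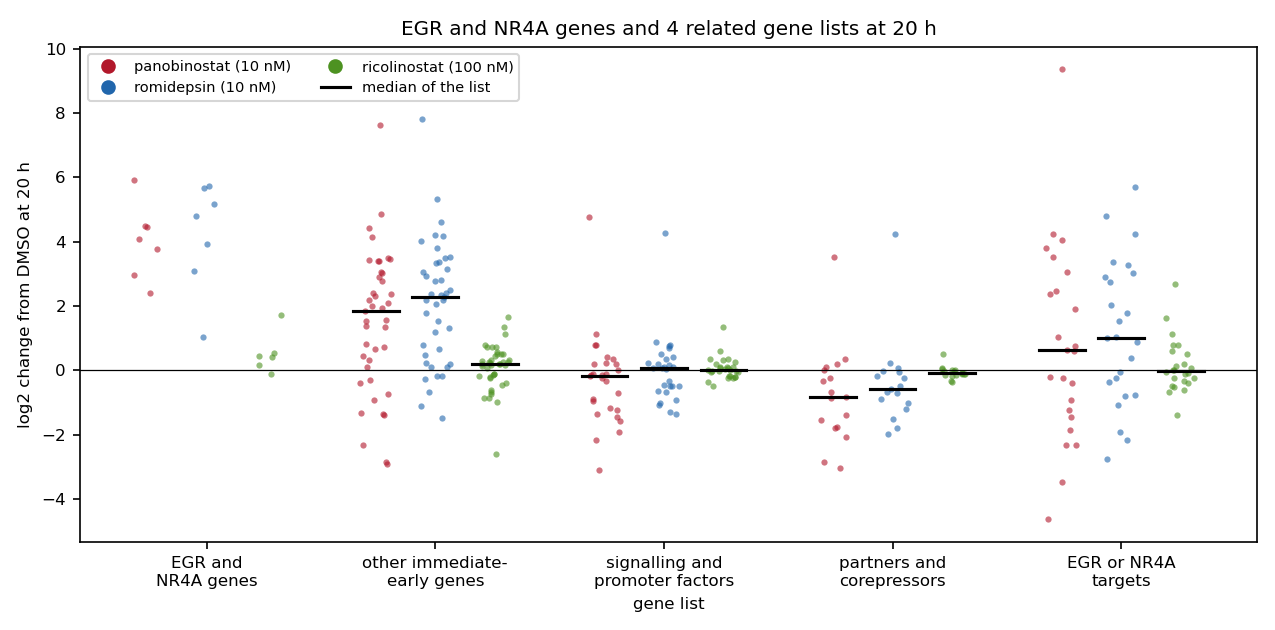
Log2 change from DMSO at 20 h (edgeR, y axis) of each EGR and NR4A gene and of each tested gene in the 4 lists, by inhibitor colour, with 1 point per gene and bars at the list medians, leaving out EGR3 after ricolinostat (0 counts). The medians of the other immediate-early genes are 1.85, 2.29 and 0.20, and those of the partners and corepressors -0.82, -0.57 and -0.09.

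The 7 genes were also set beside all others by the shape of their levels over the 10 group means, as Pearson's r of log2 CPM among 11093 candidate genes. These r share libraries, depth and 1 DMSO group and carry no p. Closest to EGR1 were TUBB3 (r 0.991), GRHL1 (0.987) and ZNF554 (0.985), and closest to EGR2 CHMP1B (0.976), GRIN2D (0.975) and TMEM179B (0.971). For EGR3 they were TMEM44 (0.963), CHEK2 (0.96) and BIK (0.958), and for EGR4 EIF4A1 (0.974), MYO15B (0.963) and IQUB (0.962). NR4A1 was closest to SPANXN3 (0.983), FXR1 (0.98) and ZNF669 (0.979). NR4A2 was closest to RASGEF1B (0.989), H1-2 (0.988) and ZFP36 (0.984), the last a member of the immediate-early list, and NR4A3 to GZF1 (0.985), SERINC1 (0.98) and SGTB (0.976). Among the 7 genes themselves r ran from 0.733 (EGR4 and NR4A2) to 0.96 (EGR2 and NR4A2). Over the 8 groups without panobinostat and romidepsin at 20 h it ran from 0.49 (EGR4 and NR4A1) to 0.926 (EGR1 and NR4A2), and r was not recomputed there for the neighbouring genes.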

How the data were processed

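RNA sequencing counts of OPM2 cells were analysed in 20 libraries, grouped by inhibitor and time as the labels give them. The authors deposited 1 table of raw counts per Ensembl gene, for which the submitters' processing notes name HISAT2, SAMtools, featureCounts and the build GRCh38. Tool versions and the gene annotation were not given in the sources used here, nor was the use of strand in counting, or the unit counted, single reads or read pairs. Of 280496 counts from 1 to 20, 59% were even, with 76134 at 2 against 43567 at 1 and 21277 at 3. Counting intervals cover counting error only and take each count as 1 molecule. Where 1 molecule gave 2 counts, they are too narrow even for that error. Symbols came from a name table that held 61481 of 78932 identifiers.

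Counts were scaled by TMM, filtered with filterByExpr (minimum count 10) and fitted in 1 robust quasi-likelihood model over all 10 groups with edgeR 4.0.16 in R 4.3.3 (common dispersion 0.00175, coefficient of variation 0.0419). It gave 20 comparisons: 9 with DMSO, 3 of romidepsin with panobinostat, 6 between successive times and 2 of the change over time between the 2 inhibitors. P-values were adjusted by Benjamini-Hochberg over all genes within a comparison, with a threshold of 0.05, and intervals are 95%. Where a group had 0 counts no standard error is given. Replicates were taken as separate samples, as the labels describe them. Their counts had a chi-square per degree of freedom of 2.35 to 6.48 in each group, against counting noise of single reads, a measure that does not tell a repeated library apart if both reads of a pair were counted.

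The genes, the 4 lists and the marker lists were chosen with earlier results of these data known. Eligible to be named beside the 7 genes were NAB1, NAB2, RXRA, SRF, FOS, FOSB, JUN, JUNB, ATF3 and DUSP1. For each list and inhibitor, up to 3 genes with the largest 20 h change were added, among those passing and reaching 5 CPM in a group. The 3 genes with the highest r to each of the 7 were added too. Not every gene so eligible is given. Positions and exon lengths came from GENCODE 29 (GRCh38), promoters from RefSeq (GRCh38.p14). Alternatives were DESeq2-type size factors, library size only, no filter, a replicate block, only the groups compared, each library left out, and DESeq2 1.42.0. Scalings of the lists were added after seeing the data.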

Additional observations from a re-analysis of the deposited data

Results flagged for a closer look

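The change between successive times differed between romidepsin and panobinostat in 8 tests of that difference itself, with edgeR's quasi-likelihood test and Benjamini-Hochberg adjustment over all genes. From 2 to 5 h, 3 of the 7 genes passed, when 14.4% of all tested genes had a larger and 9.72% a smaller change after romidepsin. The log2 change from 2 to 5 h after romidepsin minus that after panobinostat was 2.38 for NR4A3 (SE 0.58, adjusted p 0.00014) and 1.3 for NR4A2 (SE 0.20, 4.4e-08). The NR4A3 value rests on only 10 counts over the romidepsin 2 h libraries. NR4A1 went the other way, with -0.48 (SE 0.12, adjusted p 0.00082). It had risen from 2 to 5 h of panobinostat in CPM means of 29.5 and 36.6, and had 19 and 16.8 CPM after romidepsin.

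From 5 to 20 h, 5 of the 7 passed, all with the larger change after romidepsin, when 24.8% of all tested genes did so. The difference in log2 change was 3.57 for EGR2 (SE 0.36, adjusted p 5.8e-16), 3.09 for NR4A3 (SE 0.32, 1.3e-15), 2.87 for NR4A2 (SE 0.15, 1.6e-33), 2.06 for NR4A1 (SE 0.10, 1.5e-33) and 1.13 for EGR1 (SE 0.26, 0.00023). For EGR4 it was 0.54 (95% interval -1.06 to 2.14) and for EGR3 -0.02 (-2.64 to 2.60), neither of which passed.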

How the results depend on the processing

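No called result for the 7 genes changed direction under any alternative. Of 140 gene results each, 139 stayed on the same side of the threshold with DESeq2 and 139 with DESeq2-type size factors, 138 without a filter, 134 with library size only and 113 of 120 tested with only the groups compared. No pairing by replicate number was seen, with correlations of same-numbered deviations of -0.123 to 0.0845 over 45 pairs of groups. Counting noise in these deviations also brings such values near 0, so a pairing is not excluded, and the labels name no batch. A replicate block changed 2 calls, both of EGR1 after ricolinostat (edgeR adjusted p 0.062 at 2 h, 0.078 from 5 to 20 h). The counts that follow are given without the share of all genes passing under the same setting. They show only how the calls of these genes depend on the setting. With library size only, 4 genes in place of 2 passed at 5 h of romidepsin and 2 in place of 1 at 20 h of ricolinostat. With only the groups compared, 1 in place of 3 passed from 5 to 20 h of ricolinostat. Leaving out 1 library at a time gave counts of 0 to 1 at 2 h of romidepsin, 1 to 2 at 5 h and 1 to 2 at 20 h of ricolinostat, and 1 to 2 from 2 to 5 h and 1 to 2 from 5 to 20 h of ricolinostat, where an arm of 1 library is assumed to vary like the other groups.

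Scaling by library size only moved the median log2 change of all genes from 0.25 to 0.56 at 20 h of panobinostat and from 0.22 to 0.46 at 20 h of romidepsin, shifts well under the changes of the genes there. The share of higher genes among those passing went from 55.8% to 65.9% at 20 h of panobinostat, from 43.4% to 65.6% at 2 h and 44.1% to 71.3% at 5 h of romidepsin, and from 47.3% to 66.2% at 20 h of ricolinostat. For steps in time it went from 47.2% to 62.7% (2 to 5 h) and 48.8% to 60.6% (5 to 20 h) of panobinostat, and from 41.4% to 65% and 43.8% to 60.6% from 2 to 5 h of romidepsin and ricolinostat. It was 30.7% at 2 h of romidepsin with DESeq2. Among the list genes reported, 1 result reversed with library size only, SRF at 20 h of panobinostat (0.17). Without 1 library, all genes passing fell from 1711 to between 933 and 1041 at 2 h of romidepsin, from 4253 to 2714 or 2780 from 2 to 5 h of romidepsin and from 3199 to 1830 or 2005 from 2 to 5 h of ricolinostat. Depth limits EGR3 and EGR4, with 110 counts over all libraries for EGR3.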
